A study of Solanum lycopersicum with 6 samples.

Results

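Gibberellins are growth hormones whose active level in a leaf depends on enzymes that make them and on enzymes that inactivate them. The genes described here are 10 of the 35821 genes listed in a leaf RNA-seq count table of tomato, found by their Solyc identifiers without the version suffix. They were *GA20ox1* to *GA20ox4*, *GA3ox1*, *GA3ox2*, *GA2ox1*, *GA2ox2*, *GA2ox4* and *PROCERA*, and each was listed once. They were chosen as genes of gibberellin metabolism and response, and their measured values were not used to choose them. Earlier results of these data were known when the choice was made. The chromosome number in each identifier places *GA20ox4* on chromosome 1, *GA20ox1* and *GA3ox2* on chromosome 3, *GA2ox1* on chromosome 5, *GA20ox2* and *GA3ox1* on chromosome 6, *GA2ox2* and *GA2ox4* on chromosome 7, and *GA20ox3* and *PROCERA* on chromosome 11. For 7 of the 10 the RefSeq gene table of assembly SLM_r2.1 held the same symbol or synonym on the same chromosome. That table does not pair symbols with Solyc identifiers, so it was used for names, chromosomes and the order of neighbouring genes, and its coordinates are not given.

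Both genotypes were plants of the cultivar M82 under normal conditions, grown at 24 °C with 16 h of light, and RNA was taken from the fourth leaf at 4 weeks. The wild type (WT) is M82 itself, and *kyp* is a mutant in the M82 background of *KRYPTONITE*, which encodes a histone methyltransferase that deposits H3K9me2, a mark of silent chromatin. Each genotype had 3 biological replicates, and no source used here says how many plants went into a library or whether more than 1 *kyp* line was used. A whole leaf holds many cell types, so fewer cells that express a gene and less RNA per cell cannot be told apart in these values.

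In plants, GA20-oxidases carry out successive oxidations in the middle of the pathway, and GA3-oxidases then make the bioactive forms. GA2-oxidases hydroxylate active gibberellins and their precursors and so inactivate them. DELLA proteins such as PROCERA repress gibberellin responses until the hormone, bound to its receptor, brings about their degradation, and tomato plants that lack PROCERA function are tall with less divided leaves. A known feedback in Arabidopsis and other plants links these parts, in that genes for GA20-oxidases and GA3-oxidases are repressed and genes for GA2-oxidases are induced by gibberellin.

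The libraries held from 7283885 to 11012421 counts, with *kyp* replicate 1 the shallowest, and 3 counts, taken as the floor of a library, equalled 0.272 to 0.412 CPM, which are counts divided by the total of their library and rescaled. This floor covers counting error only. Libraries of 1 genotype differed by more than sampling noise, with chi-square values of 4.56 to 11.7 per degree of freedom. Of 7 leaf marker loci (plastid *rbcL* and *psbA* and 5 nuclear photosynthesis loci), 6 were listed and summed to 7131 to 9828 CPM in WT and 8994 to 10640 CPM in *kyp*. These loci did not move together. In CPM, *rbcL* ranged from 119 to 259 in WT and from 68.2 to 117 in *kyp*, and *psbA* from 59.0 to 123 in WT and from 30.3 to 52.0 in *kyp*, so both plastid genes were lower in every *kyp* library. Solyc02g070940 ranged from 1280 to 1909 CPM in WT and from 2169 to 2655 CPM in *kyp*, and Solyc02g071010 from 1280 to 2100 CPM in WT and from 2130 to 2551 CPM in *kyp*, so both were higher in every *kyp* library. The other listed nuclear loci overlapped between the genotypes. Solyc03g034220 ranged from 2610 to 3313 CPM in WT and from 2474 to 2879 CPM in *kyp*. Solyc02g063150 ranged from 1711 to 2123 CPM in WT and from 2062 to 2419 CPM in *kyp*. Leaving all organelle genes out of the fit changed no call on the 10 gibberellin genes. Whether the nuclear loci have a part in the results was not tested. A pair of meristem loci summed to 6.16 to 8.85 CPM in WT and 3.57 to 8.04 CPM in *kyp*. The 6 flower and fruit loci summed to 5.94 to 7.72 CPM in WT and 8.78 to 10.4 CPM in *kyp*. Nearly all of that sum was Solyc09g089580, with 50 to 78 counts in WT libraries and 68 to 105 in *kyp*, and the other 5 loci had 0 to 6 counts in every library. Whether this locus has a part in the results below was not tested. No source used here pairs *KYP* with an identifier. The locus taken for it from general knowledge of tomato, Solyc02g094520.3, had 164, 169 and 98 counts in WT and 164, 119 and 186 in *kyp*. The genotypes overlapped, and the log2 fold change of 0.31 (SE 0.237) had an adjusted p of 0.382 in edgeR. No source used here describes the mutation, so these counts do not check the genotype labels.

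Between the genotypes, 1 of these 10 genes rose and 1 fell. *GA20ox2*, which encodes an enzyme of synthesis, was 2.79-fold higher in *kyp*, and *GA2ox4*, which encodes an enzyme of inactivation, was 2.00-fold lower. *PROCERA*, *GA20ox1*, *GA3ox2* and *GA2ox2* were tested and did not pass the threshold. *GA20ox3*, *GA20ox4*, *GA3ox1* and *GA2ox1* had too few counts for the test. The test was the quasi-likelihood test of edgeR, run on raw counts with TMM scaling (trimmed mean of M values), with Benjamini-Hochberg adjustment over the 20154 genes left by its low-count filter and a threshold of 0.05 on the adjusted p. Over all tested genes 24.9% passed, 14.8% higher and 10.2% lower in *kyp*. The genotypes did not overlap for 2 of the 6 tested gibberellin genes and for 42.4% of all tested genes. Beside that background, 2 called of 6 tested gibberellin genes is a small count and nothing is read from it about the group. The median log2 fold change was 0.26 over the 6 tested genes and -0.01 over all tested genes. In the sentences that follow, CPM are scaled by TMM, fold changes are edgeR's estimates with their standard error (SE), and the 95% intervals are not adjusted for the number of genes. A CPM value grows with the length of the gene, so levels are compared between libraries and not between genes.

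**Figure D1:**
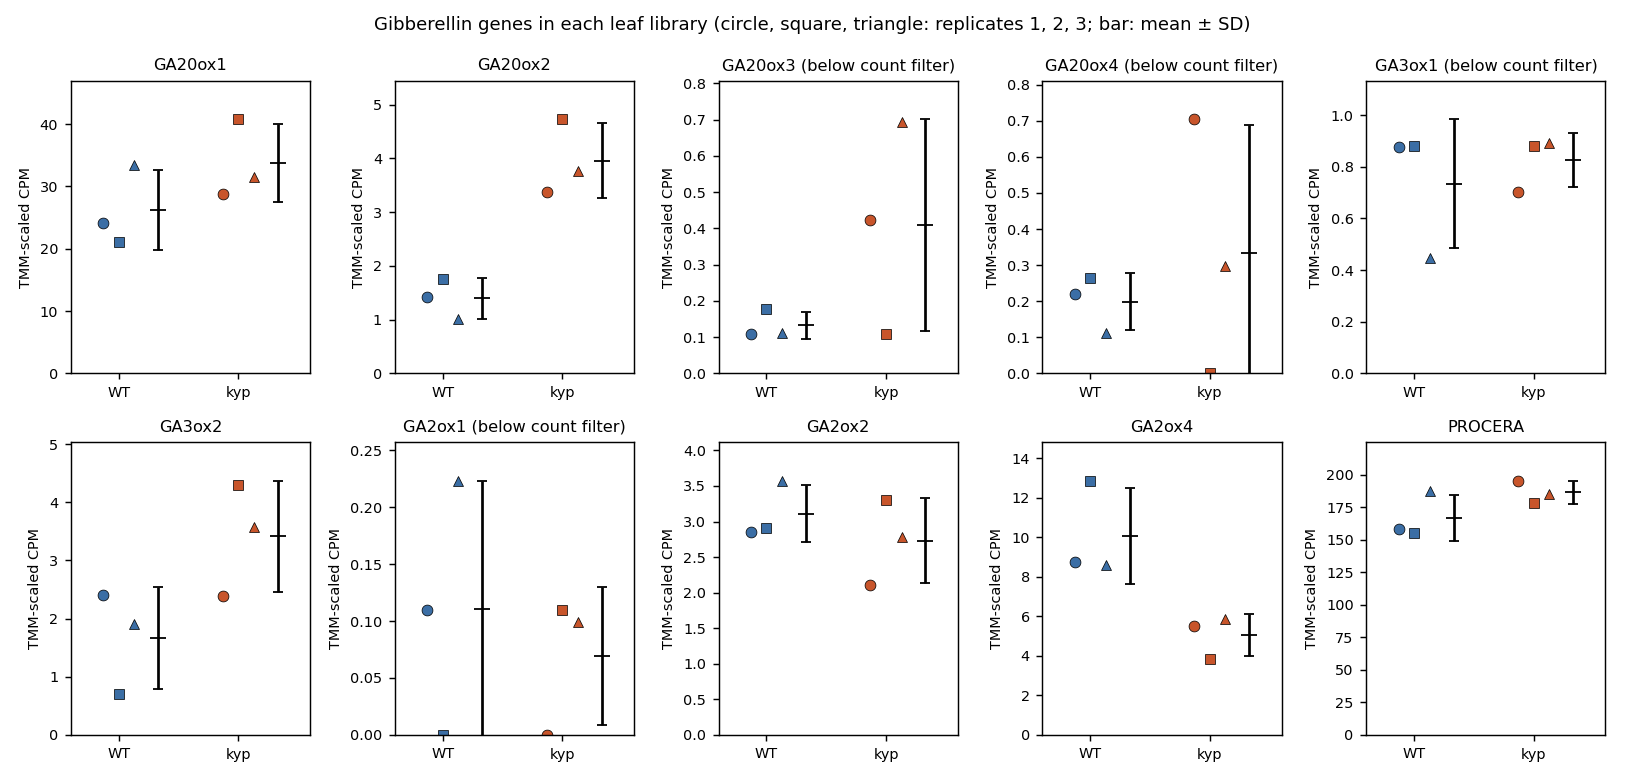
TMM-scaled CPM of the 10 genes in each library, with 1 panel per gene, WT in blue and *kyp* in orange, symbols for replicates 1, 2 and 3, and a bar for the mean ± SD of 3 libraries. The genotypes do not overlap for *GA20ox2* and *GA2ox4*, and overlap for the other 8 genes, of which 4 lay below the count filter.

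Among the GA20-oxidase genes, *GA20ox2* (Solyc06g035530.3) had 13, 20 and 9 counts in WT replicates 1, 2 and 3 and 24, 43 and 38 in the *kyp* replicates. Scaled, these were 1.42, 1.76 and 1.01 CPM in WT and 3.38, 4.73 and 3.77 CPM in *kyp*. Every *kyp* library lay above every WT library, the closest being *kyp* replicate 1 at 3.38 CPM and WT replicate 2 at 1.76 CPM. The mean went from 1.40 ± 0.379 CPM in WT to 3.96 ± 0.695 CPM in *kyp* (SD, n = 3). The log2 fold change was 1.48 (SE 0.283), or 2.79-fold with a 95% interval of 1.78 to 4.37, and the adjusted p by edgeR's test was 0.00584. The gene sits close to the filter, since 2 of the 3 WT libraries and all 3 *kyp* libraries reached its minimum of 1.09 CPM. The filter needs 3 such libraries. WT alone would thus not have admitted the gene, which entered the test through *kyp*, where it was higher. When at least 10 counts were required in every library, *GA20ox2* was no longer tested.

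*GA20ox1* (Solyc03g006880.3), the GA20-oxidase gene with the most counts, had 220, 240 and 299 counts in WT and 205, 371 and 318 in *kyp*. This corresponded to 24.1, 21.2 and 33.4 CPM in WT and 28.9, 40.8 and 31.5 CPM in *kyp*. The genotypes overlapped, because WT replicate 3 lay above *kyp* replicates 1 and 3. With means of 26.2 ± 6.40 and 33.7 ± 6.26 CPM (SD, n = 3), the log2 fold change was 0.37 (SE 0.193) and the adjusted p 0.198 by edgeR's test. The 95% interval ran from 0.953-fold to 1.75-fold, so a rise of more than 1.75-fold lay outside it. The call depended on WT replicate 3, for without that library the log2 fold change was 0.59 and the adjusted p 0.0473.

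*GA20ox3* (Solyc11g072310.2) and *GA20ox4* (Solyc01g093980.3) were hardly detected in these leaves. *GA20ox3* had 1, 2 and 1 counts in WT and 3, 1 and 7 in *kyp*, and only *kyp* replicate 3 was above the floor of 3 counts. *GA20ox4* had 2, 3 and 1 counts in WT and 5, 0 and 3 in *kyp*, and only *kyp* replicate 1 was above the floor. Both genes were left out of the test by the low-count filter, and the smallest difference that this depth could show was not computed.

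Of the GA3-oxidase genes, which act at the last step towards the bioactive hormone, *GA3ox2* did not pass the threshold and *GA3ox1* was not tested. *GA3ox2* (Solyc03g119910.4) had 22, 8 and 17 counts in WT and 17, 39 and 36 in *kyp*, which gave 2.41, 0.705 and 1.9 CPM in WT and 2.39, 4.29 and 3.57 CPM in *kyp*. *kyp* replicates 2 and 3 were above all WT libraries, whereas *kyp* replicate 1 lay just under WT replicate 1. The means were 1.67 ± 0.875 and 3.42 ± 0.956 CPM (SD, n = 3). The log2 fold change was 1.08 (SE 0.419), and the adjusted p of 0.0957 by edgeR's test missed the threshold. Its 95% interval was wide, from 1.09-fold to 4.09-fold. Like *GA20ox2*, *GA3ox2* sits close to the filter, whose minimum was reached by 2 of the 3 WT libraries and all 3 *kyp* libraries. *GA3ox2* too entered the test through *kyp*, where its mean was higher, and WT alone would not have admitted it. It was also no longer tested when at least 10 counts were required in every library.

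*GA3ox1* (Solyc06g066820.4) had 8, 10 and 4 counts in WT and 5, 8 and 9 in *kyp*, in all 44 counts. All 6 libraries were above the floor of 3 counts and none reached the filter. Means of 0.735 ± 0.249 CPM in WT and 0.825 ± 0.105 CPM in *kyp* (SD, n = 3) differed by less than the SD of either genotype, and the gene was not tested.

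Among the GA2-oxidase genes, *GA2ox4* (Solyc07g061720.3) had 80, 146 and 77 counts in WT and 39, 35 and 59 in *kyp*. The scaled values were 8.76, 12.9 and 8.60 CPM in WT and 5.49, 3.85 and 5.85 CPM in *kyp*. All *kyp* libraries lay below all WT libraries, and WT replicate 2 stood above the other WT libraries. The mean was 10.1 ± 2.42 CPM in WT and 5.06 ± 1.07 CPM in *kyp* (SD, n = 3). The log2 fold change was -1.0 (SE 0.236), or 2.00-fold lower with a 95% interval of 1.38 to 2.91, and the adjusted p was 0.0158 by edgeR's test. Without WT replicate 2 the log2 fold change was -0.78 and the adjusted p 0.0606, so the call rested on that library. Over the 14 alternatives the adjusted p ranged from 0.00485 to 0.0606.

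*GA2ox2* (Solyc07g056670.3) had 26, 33 and 32 counts in WT and 15, 30 and 28 in *kyp*, or 2.85, 2.91 and 3.58 CPM in WT and 2.11, 3.30 and 2.78 CPM in *kyp*. The genotypes overlapped, with means of 3.11 ± 0.404 and 2.73 ± 0.595 CPM (SD, n = 3). The log2 fold change was -0.17 (SE 0.249), the 95% interval ran from 0.599-fold to 1.32-fold, and the adjusted p was 0.659 by edgeR's test. *GA2ox1* (Solyc05g053340.4) had 1, 0 and 2 counts in WT and 0, 1 and 1 in *kyp*, which left every library at or under the floor of 3 counts.

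The *GA2ox2* and *GA2ox4* rows lay near each other in the count table, with 15 rows between them. These 15 genes had 13 counts in all over the 6 libraries and no more than 5 in any library, so none was tested. The row next to *GA2ox4* was Solyc07g061730.3, and in the RefSeq table the gene next to *GA2ox4* carries the symbol *GA2ox5*. This neighbour had 70, 8 and 28 counts in WT and 3, 1 and 12 in *kyp*, and was singled out for its position after its values were seen. Its genotypes overlapped, and its log2 fold change of -2.61 (SE 0.920) had an adjusted p of 0.0708 in edgeR. The adjusted p was 0.00983 with DESeq2 and 0.0356 in edgeR without a filter, so the call depended on the method. Solyc01g079200.4, on the chromosome where RefSeq places *GA2ox3*, was also singled out afterwards. It had 50, 112 and 39 counts in WT and 27, 5 and 23 in *kyp*. Its genotypes did not overlap on the CPM scale. Its log2 fold change was -1.63 (SE 0.531), with an adjusted p of 0.0549 in edgeR, 0.0177 with DESeq2 and 0.0269 in edgeR without a filter. Members of the oxidase families may share reads where their sequences are alike, and how such reads were treated in this table is not certain, so counts of close copies are uncertain.

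*PROCERA* (Solyc11g011260.1), the DELLA gene, had 1447, 1757 and 1675 counts in WT and 1388, 1622 and 1871 in *kyp*, the most of the 10 genes. Scaled, it lay at 159, 155 and 187 CPM in WT and 195, 178 and 185 CPM in *kyp*. The genotypes overlapped, because WT replicate 3 was above *kyp* replicates 2 and 3. The means were 166.9 ± 17.7 and 186.4 ± 8.59 CPM (SD, n = 3), the log2 fold change was 0.16 (SE 0.100), and the adjusted p was 0.283 by edgeR's test. The 95% interval was the narrowest of the tested gibberellin genes and ran from 0.953-fold to 1.31-fold. The tested genes whose log2(CPM + 1) followed *PROCERA* most closely over the 6 libraries were Solyc09g098060.3 and Solyc03g083030.3, both with a Pearson r of 0.99. These were the highest among all tested genes over only 6 libraries that share their scaling, so the values are a description.

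**Figure D2:**
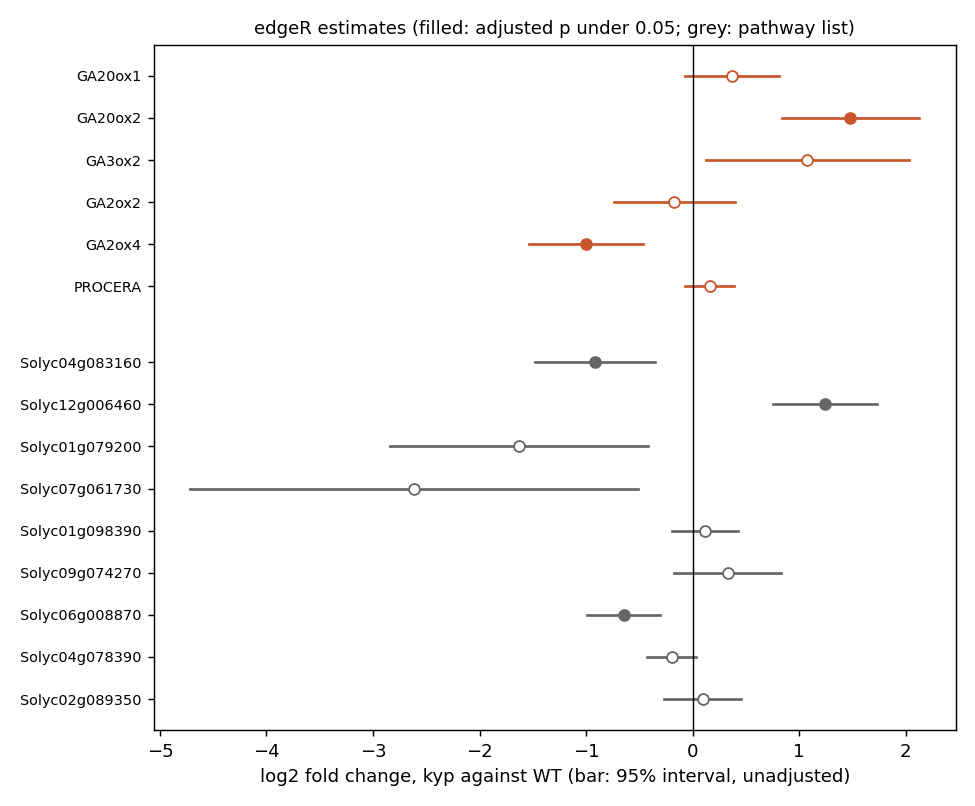
edgeR log2 fold changes of *kyp* against WT on the horizontal axis, with bars for 95% intervals that are not adjusted, for the 6 tested gibberellin genes (orange) and 9 further pathway loci (grey). Filled points passed the threshold of 0.05 on the adjusted p, and they are *GA20ox2* at 1.48, *GA2ox4* at -1.0 and the loci Solyc12g006460, Solyc06g008870 and Solyc04g083160.

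Ratios of counts inside a library do not depend on how libraries are scaled. They were chosen after the values were seen, and 3 libraries against 3 cannot give an exact two-sided permutation p under 0.1, so they are given as a description. The ratio of *GA20ox2* to *GA20ox1* counts was 0.0591, 0.0833 and 0.0301 in WT and 0.117, 0.116 and 0.119 in *kyp*. All *kyp* libraries were above all WT libraries, with a mean of 0.117 ± 0.00183 against 0.0575 ± 0.0267 in WT (SD, n = 3). These ratios rest on 13, 20 and 9 *GA20ox2* counts in WT and 24, 43 and 38 in *kyp*. Counts this small carry counting error, so nothing is read from how close together the *kyp* values lay.

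The ratio of *GA20ox2* to *GA2ox4* counts, a gene of synthesis against a gene of inactivation, was 0.163, 0.137 and 0.117 in WT and 0.615, 1.23 and 0.644 in *kyp*. The means of 0.139 ± 0.0229 and 0.829 ± 0.346 (SD, n = 3) differed by 5.98-fold. Since these are the genes that rose and fell, their separation follows from the results above. For *GA20ox1* to *GA2ox4* the ratio was 2.75, 1.64 and 3.88 in WT and 5.26, 10.6 and 5.39 in *kyp*, also without overlap. It shares the *GA2ox4* counts, so it is not a separate result. In scaled CPM the genotypes did not overlap for *GA2ox4* and overlapped for *GA20ox1*. The ratios within the other enzyme families overlapped between the genotypes. *GA2ox4* to *GA2ox2* was 3.30 ± 1.03 in WT and 1.96 ± 0.728 in *kyp*, and *GA3ox2* to *GA3ox1* was 2.60 ± 1.73 in WT and 4.09 ± 0.742 in *kyp* (SD, n = 3).

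**Figure D3:**
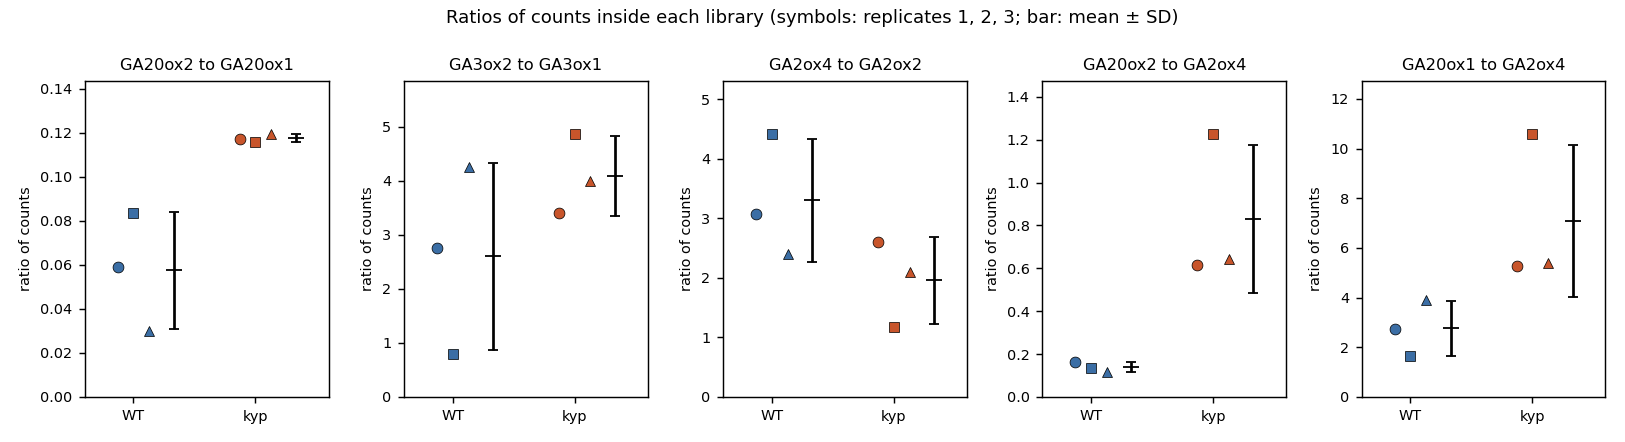
Ratio of the counts of a pair of genes inside each library, with 1 panel per pair, WT in blue, *kyp* in orange, symbols for replicates 1, 2 and 3 and a bar for the mean ± SD of 3 libraries. *kyp* lies above WT in every library for *GA20ox2* to *GA20ox1*, *GA20ox2* to *GA2ox4* and *GA20ox1* to *GA2ox4*, and the genotypes overlap in the other panels.

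Beyond the 10 genes, a list of 11 further loci of gibberellin synthesis, inactivation, perception and response was written down by identifier. It came from general knowledge of tomato, with earlier results of these data known. Of these, 10 were listed in the table and 9 were tested, and 1 was higher and 2 were lower in *kyp* against 14.8% and 10.2% of all tested genes. The median log2 fold change of the 9, which include Solyc07g061730 and Solyc01g079200 described above, was -0.20. Most loci of the list are not paired with a name in the sources used here, so they are given by identifier alone. Solyc12g006460.2 had 687, 725 and 1067 counts in WT and 1640, 1682 and 1973 in *kyp*. It was higher in every *kyp* library, with means of 86.1 ± 29.2 and 203.8 ± 24.1 CPM (SD, n = 3), a log2 fold change of 1.24 (SE 0.214) and an adjusted p of 0.00355 in edgeR.

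Solyc06g008870.2 had 451, 498 and 401 counts in WT and 166, 258 and 363 in *kyp*. It was lower in every *kyp* library on the CPM scale, with a log2 fold change of -0.65 (SE 0.151) and an adjusted p of 0.0150 in edgeR, and without WT replicate 1 the adjusted p was 0.0561. Solyc04g083160.2 had 34, 47 and 52 counts in WT and 18, 21 and 24 in *kyp*, and its log2 fold change of -0.92 (SE 0.248) had an adjusted p of 0.0274 in edgeR. This call was the least stable of those named, since the adjusted p was 0.0527 with DESeq2. It was also lost on leaving out WT replicate 2 (adjusted p 0.0600), WT replicate 3 (0.0839), *kyp* replicate 1 (0.0628), *kyp* replicate 2 (0.0564) or *kyp* replicate 3 (0.0837) in the edgeR test.

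**Figure D4:**
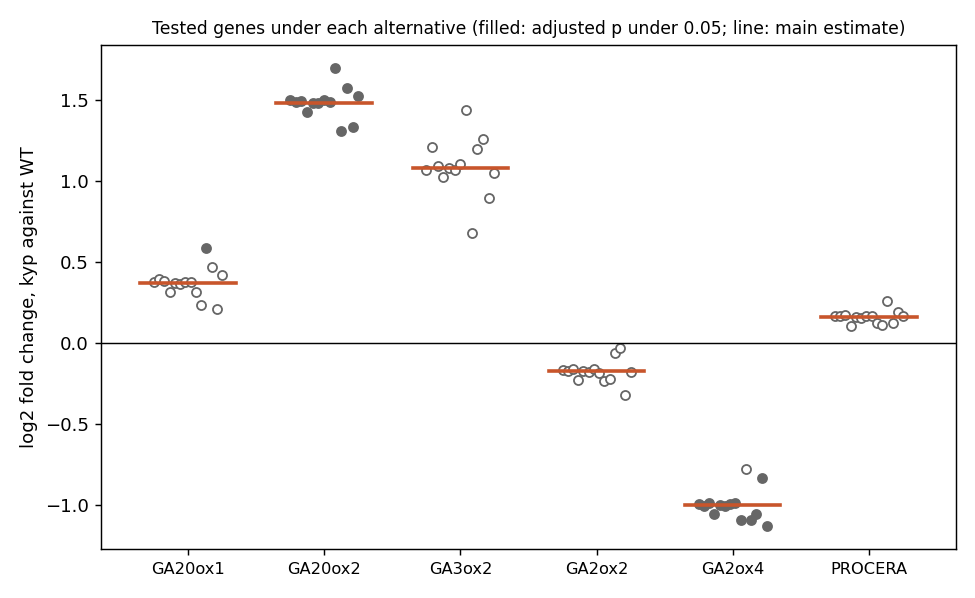
edgeR, DESeq2 or limma-voom log2 fold changes of *kyp* against WT for the 6 tested gibberellin genes under each alternative (points, filled where the adjusted p was under 0.05), with the main estimate as a line. *GA20ox2* stays between 1.31 and 1.70 and is filled throughout, *GA2ox4* lies between -1.13 and -0.78 with 1 open point, and no gene crosses 0.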

How the data were processed

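RNA-seq was analysed for 3 WT and 3 *kyp* leaf libraries. The file deposited by the authors gives raw counts, with 1 whole number for each gene in each of the 6 libraries and no normalization. According to the paper's methods, adapters were removed with Trimmomatic, reads were mapped to the M82 genome with Bowtie2, and PCR duplicates and alignments of low mapping quality were discarded. The submitters' processing notes name Trimmomatic 0.38, HISAT2 2.2.1, SAMtools 1.9, featureCounts, R 3.5.1 and DESeq2, so the aligner behind the table is uncertain. The strand setting and annotation release are not given in the sources used here. Without a known strand setting, reads of overlapping antisense genes cannot be told apart.

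Counts were tested in R 4.3.3 with edgeR 4.0.16 (TMM, filterByExpr with a minimum count of 10 and a minimum total of 15, glmQLFit, glmQLFTest, genotype as the only factor, 6 libraries). The SE was taken as the log2 fold change divided by the square root of F. The test was checked on simulated data. All 10 genes were named. Further pathway loci were named only past the threshold, and other loci as *PROCERA*-like by the highest Pearson r. As exceptions, *GA2ox5*, Solyc01g079200, Solyc09g089580 and the listed nuclear leaf marker loci were named after their values were seen. The locus taken for *KYP* and the plastid markers *rbcL* and *psbA* were named without regard to the threshold. The genes and lists were chosen with earlier results of these data known. Alternatives were DESeq2 1.42.0, limma-voom (limma 3.58.1), upper-quartile scaling, library totals alone, leaving out organelle genes, a minimum of 10 counts in every library, no filter, a replicate block and leaving out each library. Figures were drawn with matplotlib 3.10.9.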

Additional observations from a re-analysis of the deposited data

How the results depend on the processing

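The 6 tested gibberellin genes kept their direction under every alternative that tested them. *GA20ox2* passed the threshold in all 13 of these and *PROCERA*, *GA3ox2* and *GA2ox2* in none. *GA2ox4* passed in 13 of 14, the exception being the fit without WT replicate 2, and *GA20ox1* in 1 of 14, without WT replicate 3. The number of members called higher was 0 with at least 10 counts in every library, because *GA20ox2* was not tested there, and 1 to 2 on leaving out each library. The number called lower was 0 to 1 on leaving out each library. The further pathway loci had 5 calls without a filter against 3, the added ones being Solyc01g079200 and Solyc07g061730. They had 4 calls with DESeq2, limma-voom, library totals alone or the replicate block, and 2 to 3 on leaving out each library. Over all genes the count of 5028 became 3538 to 5431 on leaving out each library. Higher genes made up 59.3% of the calls under TMM and 50.7% when only library totals were used, and the median log2 fold change of all tested genes moved from -0.01 to -0.06.

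Without a filter the 4 untested members had adjusted p from 0.251 to 0.865 by edgeR's test, and depth limits what can be said of them. With the replicate number as a block 4867 genes were called and no call on the 10 genes changed. The labels give both genotypes the same replicate numbers, but the deviations of same-numbered libraries correlated at 0.22, 0.07 and -0.08, so the numbers were not taken to pair them, and a library did not always correlate best with its own number.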
